A study of Mus musculus with 6 samples.

Results

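The plasminogen activator system was followed here through 5 genes of the 54532 genes in the deposited expression table. They are the urokinase gene *Plau*, the urokinase receptor gene *Plaur*, the tissue-type plasminogen activator gene *Plat*, and the inhibitor genes *Serpine2* and *Serpinb2*. The genes were chosen by symbol for their place in the system, with their counts in these same libraries already known, so their own difference between the groups is given as a description without a test. All 5 were found in the table. Only *Plau* and *Plaur* had enough reads to enter the fit over 14169 genes, and *Plat*, *Serpine2* and *Serpinb2* did not pass its filter on low counts.

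The samples were GFP+ leukemia cells sorted from the bone marrow of mice, with 3 RNA-sequencing libraries of *WT Phf6,RE9a* cells (WT, numbered 1 to 3) and 3 of *VC Phf6,RE9a* cells (VC, numbered 11 to 13). WT cells came from *Phf6 fl/y* males, which carry a floxed but intact *Phf6* on the X chromosome, and VC cells came from *Vav1-Cre;Phf6 fl/y* males, in which Cre under the blood-cell gene *Vav1* deletes *Phf6*. The starting cells of both genotypes, lineage-negative cells of E14.5 fetal liver, had been transduced with a RUNX1-ETO9a-GFP (RE9a) virus, which encodes a truncated form of a fusion protein of acute myeloid leukemia (AML), and had then been passed through male recipients. Nothing in the labels tells if libraries of one genotype were separate leukemias, so p-values cover only the spread between these libraries.

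Plasmin, the protease that dissolves fibrin and degrades matrix proteins, is cut from the inactive zymogen plasminogen by urokinase or by tissue-type activator. Urokinase works at the cell surface, where its receptor, anchored in the membrane by a lipid tail, holds it, and tissue-type activator works mostly on fibrin. Serpins are suicide inhibitors that trap a protease on their reactive loop: PAI-2 (*Serpinb2*) and protease nexin-1 (*Serpine2*) are among those that block the activators, and the receptor is known from neutrophils, monocytes and macrophages as an adhesion and migration molecule.

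Library totals ran from 15675358 to 16817994 counts. *Phf6*, the deleted gene, had 1044, 827 and 1142 counts in WT libraries 1, 2 and 3 and 388, 314 and 331 counts in VC libraries 11, 12 and 13, a log2 fold change of -1.66 (SE 0.13, edgeR adjusted p = 9.32e-05). Reads of *Phf6* remained in every VC library, all of them below every WT library. The labelled leukemia cells expressed progenitor markers in all 6 libraries: the summed level of 10 of them was 2374 to 3733 CPM (counts scaled to the library size) in WT and 588 to 856 CPM in VC libraries. *Kit* carried most of that fall, the other 9 summing to 498 to 1036 CPM in WT and 337 to 617 CPM in VC libraries. Of the 10 markers 5 were called higher, 3 lower and 2 neither in edgeR. *Kit*, *Cd34* and *Fcgr3* were lower in VC cells. *Itgam* and the granule protein genes *Mpo*, *Elane*, *Prtn3* and *Ctsg* were higher, and *Spi1* and *Ptprc* were not called. In the same libraries the mast cell and basophil markers summed to more, 17583 to 28063 CPM in WT and 4710 to 5177 CPM in VC.

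RefSeq promoter sequence was at hand for 3 of the 5 genes, *Plaur*, *Serpine2* and *Serpinb2*. The sequences before the start sites of *Plaur* and *Serpinb2* are shown because these are the members whose level was higher in VC libraries without overlap between the groups. Each line gives the 250 bases upstream of the RefSeq start site, 5′ to 3′ on the strand of the gene and on build GRCm38.p6, for *Plaur* chr7:24462233-24462482 and for *Serpinb2* chr1:107511173-107511422, both on the plus strand.
Plaur: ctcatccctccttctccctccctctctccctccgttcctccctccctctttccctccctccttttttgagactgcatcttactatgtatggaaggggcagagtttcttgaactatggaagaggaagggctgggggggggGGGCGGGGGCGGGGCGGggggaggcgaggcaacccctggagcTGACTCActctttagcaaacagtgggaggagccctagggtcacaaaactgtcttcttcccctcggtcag
Serpinb2: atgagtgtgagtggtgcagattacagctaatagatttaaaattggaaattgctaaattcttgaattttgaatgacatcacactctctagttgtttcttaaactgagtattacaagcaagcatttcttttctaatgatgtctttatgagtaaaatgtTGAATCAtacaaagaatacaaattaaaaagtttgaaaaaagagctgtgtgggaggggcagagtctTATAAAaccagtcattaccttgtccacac
Capitals mark matches to 5 short motifs searched on both strands, AP-1 (TGANTCA), Sp1 (GGGCGG), RUNX (TGNGGT), the GATA factor motif AGATAA and the TATA box (TATAAA), and the NF-κB motif was searched too. In the *Plaur* sequence they are 3 Sp1 matches that begin 111, 105 and 100 bases before the start site, of which the last pair share a base, and 1 AP-1 match that begins 69 bases before it. In the *Serpinb2* sequence they are 1 AP-1 match that begins 94 bases and 1 TATA box that begins 29 bases before the start site. An AP-1 match was found in both. Over 32851 RefSeq promoters of the same length, 6.75% held AP-1, 32.7% Sp1 and 12.4% TATA matches. A link of the shared AP-1 match to the higher level in VC libraries was not tested. It cannot be read from these sequences, which were chosen for that level. No promoter sequence was at hand for *Plau*, which was lower in VC libraries. The bases were 59.6% G and C before *Plaur* and 32.4% before *Serpinb2*. The same stretch before *Serpine2* (chr1:79858666-79858915, minus strand) was 78.8% G and C, held 6 Sp1 matches and 1 RUNX match, a motif found in 40.1% of promoters, and held no AP-1 match. GATA and NF-κB matches, which 9.99% and 3.9% of promoters held, were found in none of the 3 stretches. A match is a run of letters and does not show that a factor binds there.

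*Plau* (ENSMUSG00000021822, plus strand, 20836660 to 20843385 on chromosome 14 of GRCm38, 11 exons in its first coding transcript) encodes urokinase, and it was the activator gene with nearly all of the reads. The WT libraries 1, 2 and 3 held 1391, 811 and 802 *Plau* counts, and the VC libraries 11, 12 and 13 held 33, 73 and 13. Every WT library lay above every VC library, and the lowest WT count was far above the highest VC count. In CPM, which corrects for library size and composition, the levels were 90.3, 55.0 and 48.5 in WT and 1.95, 4.25 and 0.772 in VC libraries. The group means were 64.6 ± 22.5 CPM and 2.32 ± 1.77 CPM (SD, n = 3 each), a log2 fold change of -4.79 with a standard error of 0.50, or 27.6-fold lower in VC cells.

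The libraries of one genotype were not alike in *Plau*. In WT the highest level was 1.86-fold the lowest and the coefficient of variation was 34.8%, with library 1 standing above the other two. In VC the highest was 5.51-fold the lowest and the coefficient of variation was 76.2%, with library 12 highest and library 13 lowest. Without VC library 12 the log2 fold change was -5.56, and without library 13 it was -4.38. Over the 54532 genes *Plau* ranked 2058th by mean FPKM (fragments per kilobase of gene, scaled to the library size) in WT cells and 11964th in VC cells. Of the 14169 genes in the fit, 1.74% had a larger change in size, and *Plau* was the 132nd from the lower end.

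*Plat* (ENSMUSG00000031538, plus strand, 22757727 to 22782844 on chromosome 8) encodes tissue-type activator, familiar from endothelial cells and neurons and as a drug against clots. It was hardly read: 5, 9 and 3 counts in WT libraries 1, 2 and 3, and 1, 12 and 1 counts in VC libraries 11, 12 and 13. The groups overlapped, and VC library 12 was both the highest of all 6 and the only one of its group above a single count. Summed over the group, 17 counts stood against 14, a ratio of VC over WT of 0.755 after scaling (95% exact interval for counting error only, 0.344 to 1.63). No difference was detectable at this depth, and the log2 ratio of the means, -0.45, came to -2.65 without VC library 12. Library 12 also held the highest summed level of the stromal and fibroblast markers, 24.2 CPM against 2.30 to 6.36 CPM in the other 5 libraries, but 18.2 CPM of it was *Sparc* alone. The other 9 markers summed to 6.0 CPM in library 12 and to 1.90 to 6.36 CPM elsewhere, with the defining marker *Col3a1* at 0 in all 6. The part of such cells in the *Plat* counts was not tested.

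Of the transcripts for the activators, counted per length, *Plau* made up 99.6% to 99.9% in WT libraries and 94.1% to 98.9% in VC libraries. Urokinase was therefore the main activator transcript in both genotypes, at 27.2 ± 9.61 FPKM in WT and 0.972 ± 0.745 FPKM in VC cells, beside 0.0593 ± 0.0347 and 0.0433 ± 0.0588 FPKM for *Plat* (SD, n = 3). The lowest *Plau* level of any library, 0.320 FPKM in VC library 13, was still above the highest *Plat* level, 0.111 FPKM in VC library 12.

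*Plaur* (ENSMUSG00000046223, plus strand, 24462484 to 24475968 on chromosome 7, 7 exons) encodes the receptor that binds urokinase, and it ran the other way from its ligand. The WT libraries 1, 2 and 3 held 130, 174 and 203 *Plaur* counts and the VC libraries 11, 12 and 13 held 888, 578 and 485. The groups did not overlap, and the lowest VC library held more than double the highest WT library. The levels were 8.44, 11.8 and 12.3 CPM in WT and 52.4, 33.7 and 28.8 CPM in VC libraries. The means were 10.8 ± 2.10 CPM and 38.3 ± 12.5 CPM (SD, n = 3 each), and the log2 fold change was 1.82 (SE 0.25), 3.53-fold higher in VC cells.

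*Plaur* varied less between libraries of a genotype than *Plau* did, with coefficients of variation of 19.3% in WT and 32.6% in VC. Leaving out single libraries gave log2 fold changes of 1.53 to 1.99, the lowest without VC library 11. *Plaur* moved from rank 8486 by mean FPKM in WT cells to rank 3917 in VC cells, and 11.6% of the tested genes had a larger change in size. The order of the libraries within a group was not that of *Plau*: VC library 11 was highest in *Plaur* and library 12 in *Plau*, and WT library 1 was lowest in *Plaur* and highest in *Plau*.

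**Figure D1:**
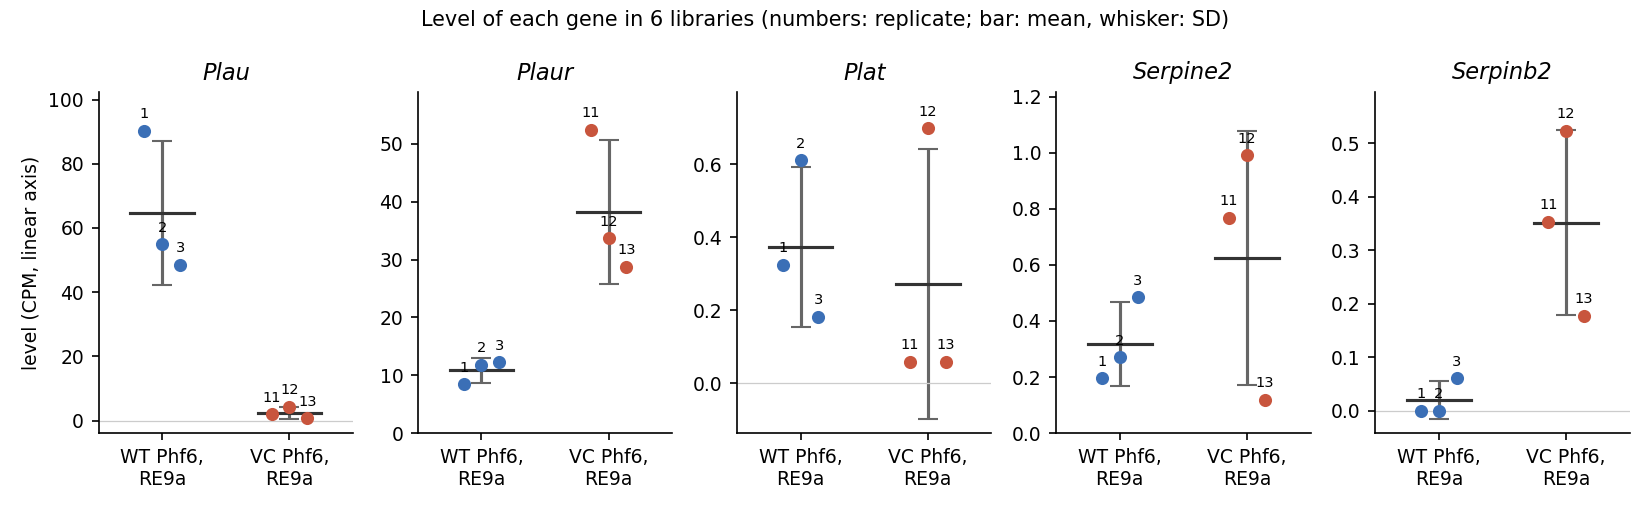
Level of *Plau*, *Plaur*, *Plat*, *Serpine2* and *Serpinb2* in CPM on linear axes that differ between panels, with 1 point per library numbered by replicate, a bar at the group mean and whiskers of 1 SD. *Plau* sits at 48.5 to 90.3 CPM in WT and 0.772 to 4.25 CPM in VC libraries, *Plaur* at 8.44 to 12.3 and 28.8 to 52.4 CPM, and the other three stay under 1 CPM in all libraries.

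*Serpine2* (ENSMUSG00000026249, minus strand, 79794197 to 79861180 on chromosome 1) encodes protease nexin-1, an inhibitor of thrombin, urokinase and tissue-type activator. There were 3, 4 and 8 counts in WT libraries 1, 2 and 3 and 13, 17 and 2 in VC libraries 11, 12 and 13. The groups overlapped, because VC library 13 was the lowest of all 6 while the other VC libraries were the highest. The sums were 15 and 32 counts, a ratio of 1.95 with a 95% exact counting interval of 1.03 to 3.88, an interval that does not include the spread between libraries. The level was 0.317 ± 0.150 CPM in WT and 0.626 ± 0.453 CPM in VC cells (SD, n = 3), so the means differed by less than the SD of the VC libraries.

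*Serpinb2* (ENSMUSG00000062345, plus strand, 107511423 to 107535478 on chromosome 1) encodes PAI-2, a mostly intracellular inhibitor known from activated macrophages. No *Serpinb2* read was counted in WT libraries 1 and 2, where 0 counts allow a level of up to 0.195 and 0.204 CPM (3 counts of the scaled library size), and 1 was counted in library 3. The VC libraries 11, 12 and 13 held 6, 9 and 3 counts. The groups did not overlap, but all 6 values were near the limit of detection. The ratio of the summed counts, 18 over 1, was 16.5 after scaling, with a 95% exact counting interval of 2.60 to 687, so the size of the difference is hardly fixed by these reads.

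The deposited span of *Serpinb2* overlaps *Serpinb10*, another clade B serpin that the annotation lists as a polymorphic pseudogene, on the same strand (107529003 to 107549271), although its first coding transcript ends before that at 107525598. Reads from the shared stretch cannot be assigned to one gene by strand. *Serpinb10* had 2, 4 and 6 counts in WT libraries 1, 2 and 3 and 24, 24 and 7 counts in VC libraries 11, 12 and 13. Its groups did not overlap either, and it was read more than *Serpinb2* in each of the 6 libraries. The part of *Serpinb10* reads in the *Serpinb2* counts was not tested.

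Of the 5 genes, 1 was called higher (*Plaur*) and 1 lower (*Plau*) at an edgeR adjusted p under 0.05, and 3 could not be tested. Over all tested genes 44.2% were called, 21.5% higher and 22.7% lower in VC cells. For *Plau*, *Plaur* and *Serpinb2* the values of WT and VC libraries were separate, without overlap, as for 57.3% of the tested genes, 28.9% higher and 28.4% lower in VC. Since the genes were named with this contrast known, nothing is read from these counts. In bulk samples, fewer cells that express a gene and less RNA per cell cannot be told apart, which holds for every difference given here.

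Because FPKM values are per length, the members could be set against each other within a library. The WT libraries 1, 2 and 3 held 38.1, 23.1 and 20.3 FPKM of *Plau* beside 3.22, 4.47 and 4.64 FPKM of *Plaur*. The VC libraries 11, 12 and 13 held 0.812, 1.78 and 0.320 FPKM of *Plau* beside 19.8, 12.8 and 10.8 FPKM of *Plaur*. The ligand was thus above its receptor in every WT library and below it in every VC library. The ratio of *Plau* over *Plaur* was 11.8, 5.15 and 4.37 in WT and 0.0411, 0.140 and 0.0296 in VC libraries, and the medians of the groups lay 125-fold apart.

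By mean FPKM in WT cells the order was *Plau* (27.2 ± 9.61), *Plaur* (4.11 ± 0.775), *Plat* (0.0593 ± 0.0347), *Serpine2* (0.0379 ± 0.0178) and *Serpinb2* (0.0085 ± 0.0147), and in VC cells it was *Plaur* (14.5 ± 4.71), *Plau* (0.972 ± 0.745), *Serpinb2* (0.148 ± 0.0736), *Serpine2* (0.0747 ± 0.0543) and *Plat* (0.0433 ± 0.0588), each with SD and n = 3. In WT cells *Plat* and *Serpine2* differed by less than the SD of *Plat*. In VC cells the neighbours *Serpinb2* and *Serpine2* differed by no more than the SD of *Serpinb2*, and *Serpine2* and *Plat* by less than either SD.

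**Figure D2:**
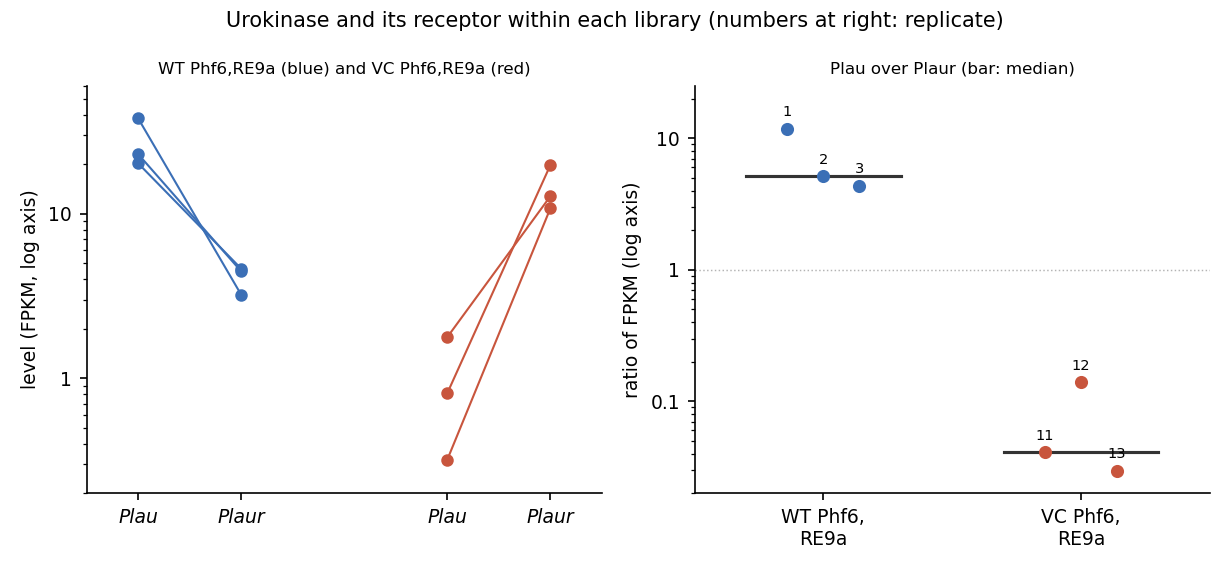
Left, FPKM of *Plau* and *Plaur* on a log axis, with a line joining the 2 values of each library; right, the ratio of *Plau* over *Plaur* on a log axis, with 1 point per library numbered by replicate, a bar at the group median and a dotted line at 1. The ratio lies at 4.37 to 11.8 in WT and 0.0296 to 0.140 in VC libraries, so the line at 1 separates the groups.

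The substrate of *Plau* was almost unread: plasminogen (*Plg*), made by the liver, had 3, 0 and 1 counts in WT and 3, 0 and 5 counts in VC libraries and was not tested. *Plg* belongs to a list of 12 genes of plasminogen, its inhibitors and related serine proteases, of which 5 were at 0 in every library and 9 had at most 3 counts in each. Over all tested genes 21.5% were called higher and 22.7% lower, and the counts of this and later lists stand beside these shares. In edgeR the 2 tested genes of this list were called lower and none higher. They had a median log2 fold change of -1.55, beside 0.013 over all tested genes. They were *Serpini1* (neuroserpin, an inhibitor of tissue-type activator; -2.39, SE 0.47, adjusted p = 0.00517) and *Hgfac* (a protease that activates hepatocyte growth factor; -0.70, SE 0.19, adjusted p = 0.0197). The *Hgfac* call was lost without WT library 1 or VC library 12 or 13, with adjusted p of 0.0609 to 0.0707, and without those libraries 1 gene of the list was called in place of 2.

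Beside urokinase and its receptor, cells bind plasminogen through other surface proteins, many of which end in lysine. Of 6 such genes 5 were tested, and 1 was called higher and 2 lower in edgeR, with a median log2 fold change of -0.38. *Eno1*, alpha-enolase, fell by 0.83 on the log2 scale (SE 0.14, adjusted p = 0.00289), and *Plgrkt*, the plasminogen receptor with a C-terminal lysine, fell by 0.52 (SE 0.13, adjusted p = 0.0125, and 0.0558 without VC library 11). *Anxa2*, annexin A2, also a docking site for *Plat*, was called higher at 1.32 (SE 0.40, adjusted p = 0.0286), although its groups overlapped. Like *Plaur*, it was highest in VC library 11, with 528, 367 and 169 counts in VC libraries 11, 12 and 13 and 94, 130 and 167 in WT libraries. Its adjusted p was 0.0593 to 0.0989 without WT library 1 or 2 or VC library 11 or 12, where 0 genes of the list were called higher. *S100a10*, its partner, had a log2 fold change of -0.38 (SE 0.21, adjusted p = 0.170, and 0.0306 without WT library 2).

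The urokinase receptor has no cytoplasmic part and signals through integrins and other membrane proteins, and the complex of *Plau* and inhibitor is cleared by lipoprotein receptors. In a list of 20 such partner and clearance genes 15 were tested, 7 were called higher and 2 lower in edgeR, and the median log2 fold change was 0.62. *Itgb1*, the integrin beta chain with which the receptor associates, rose by 1.15 (SE 0.12, adjusted p = 0.000341). *Itgb2*, the beta chain of Mac-1, read 116 ± 19.9 CPM in WT and 115 ± 19.3 CPM in VC cells (SD, n = 3), a log2 fold change of -0.02 (SE 0.16, adjusted p = 0.941). Its partner *Itgam*, the alpha chain of Mac-1, read 1.10, 1.29 and 4.72 CPM in WT and 19.7, 11.3 and 4.63 CPM in VC libraries and was called higher at 2.31 (SE 0.68, adjusted p = 0.0272). The *Itgam* groups overlapped, and the call was lost without WT library 1 or 2 or VC library 11 or 12, with adjusted p of 0.0615 to 0.0950. The formyl peptide receptor *Fpr2* rose (3.05, SE 0.64, adjusted p = 0.00669). So did the cation-independent mannose 6-phosphate receptor *Igf2r* (2.51, SE 0.53, adjusted p = 0.00682). The sorting receptor *Sorl1* rose as well (2.42, SE 0.47, adjusted p = 0.00486). Each of them, like *Plaur*, was highest in VC library 11. The summed neutrophil markers were highest there too, at 3737, 2383 and 980 CPM in VC libraries 11, 12 and 13. The part of neutrophils in these values was not tested. *Itgb3*, the beta chain of the vitronectin receptor, fell (-3.31, SE 0.54, adjusted p = 0.00223). *Pdgfrb*, a receptor for platelet-derived growth factor, was called lower at -2.71 (SE 0.89, adjusted p = 0.0409) with 74, 12 and 11 counts in WT and 4, 9 and 3 in VC libraries, and the value was -1.22 without WT library 1. That call was also lost without VC library 11, 12 or 13, with adjusted p of 0.0660 to 0.148 over these 4 fits.

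A further list held substrates, receptors and related genes of plasmin, which urokinase makes, and of thrombin, which it does not make. In that list of 27 genes 15 were tested, 6 were called higher and 4 lower in edgeR, and the median log2 fold change was 0.69. Lower were *Mmp14*, the membrane-bound metalloprotease that activates gelatinase A (-1.81, SE 0.13, adjusted p = 7.28e-05), the thrombin receptor genes *F2rl2* (-2.29, SE 0.34, adjusted p = 0.00150) and *F2r* (-0.47, SE 0.083, adjusted p = 0.00326), and the growth factor *Tgfb1* (-0.52, SE 0.10, adjusted p = 0.00448). Higher were the gelatinase B gene *Mmp9* (2.90, SE 0.60, adjusted p = 0.00624), the metalloprotease inhibitor *Timp2* (2.62, SE 0.52, adjusted p = 0.00516), the coagulation factor V gene *F5* (2.79, SE 0.52, adjusted p = 0.00418) and the prothrombin gene *F2* (1.94, SE 0.52, adjusted p = 0.0192). *F2* had at most 18 counts in a library and lost its call without WT library 2 or 3 or VC library 12 or 13, with adjusted p of 0.0501 to 0.0701, and also in DESeq2 (adjusted p = 0.0592) and in limma on log2(FPKM + 1) (adjusted p = 0.0705). Without WT library 2 or VC library 12, 3 genes of the list were called higher in place of 6.

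The members' own superfamily was read only in part. Of 65 other serpin genes, *Serpini1* among them, 37 were at 0 in every library and 8 were tested, with 1 called higher and 3 lower in edgeR and a median log2 fold change of -0.18. *Serpinb1a*, an inhibitor of neutrophil serine proteases and a clade B relative of *Serpinb2*, fell from 20748, 19381 and 14655 counts to 1066, 2380 and 787 counts, a log2 fold change of -3.84 (SE 0.42, adjusted p = 0.000375). Within each genotype its lowest library was the one that was lowest in *Plau*, WT library 3 and VC library 13, and its highest library was likewise that of *Plau*. *Serpinb9*, the granzyme B inhibitor, rose by 0.84 (SE 0.16, adjusted p = 0.00420), and *Serpinb6a* was called lower at -0.91 (SE 0.25, adjusted p = 0.0213, and 0.0579 to 0.0658 without VC library 11, 12 or 13). *Serpina3g*, at 113 FPKM in WT and 151 FPKM in VC cells the tested serpin of highest level in VC, had a log2 fold change of 0.43 (SE 0.19, adjusted p = 0.111, and 0.0291 without WT library 2). The number of these serpins called higher ran from 1 to 4 and the number called lower from 2 to 4 with single libraries left out, the highest of both numbers without WT library 2. The number called higher was also 2 without WT library 1 or 3 or VC library 11 or 13, and the number called lower was 2 without VC library 11, 12 or 13.

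**Figure D3:**
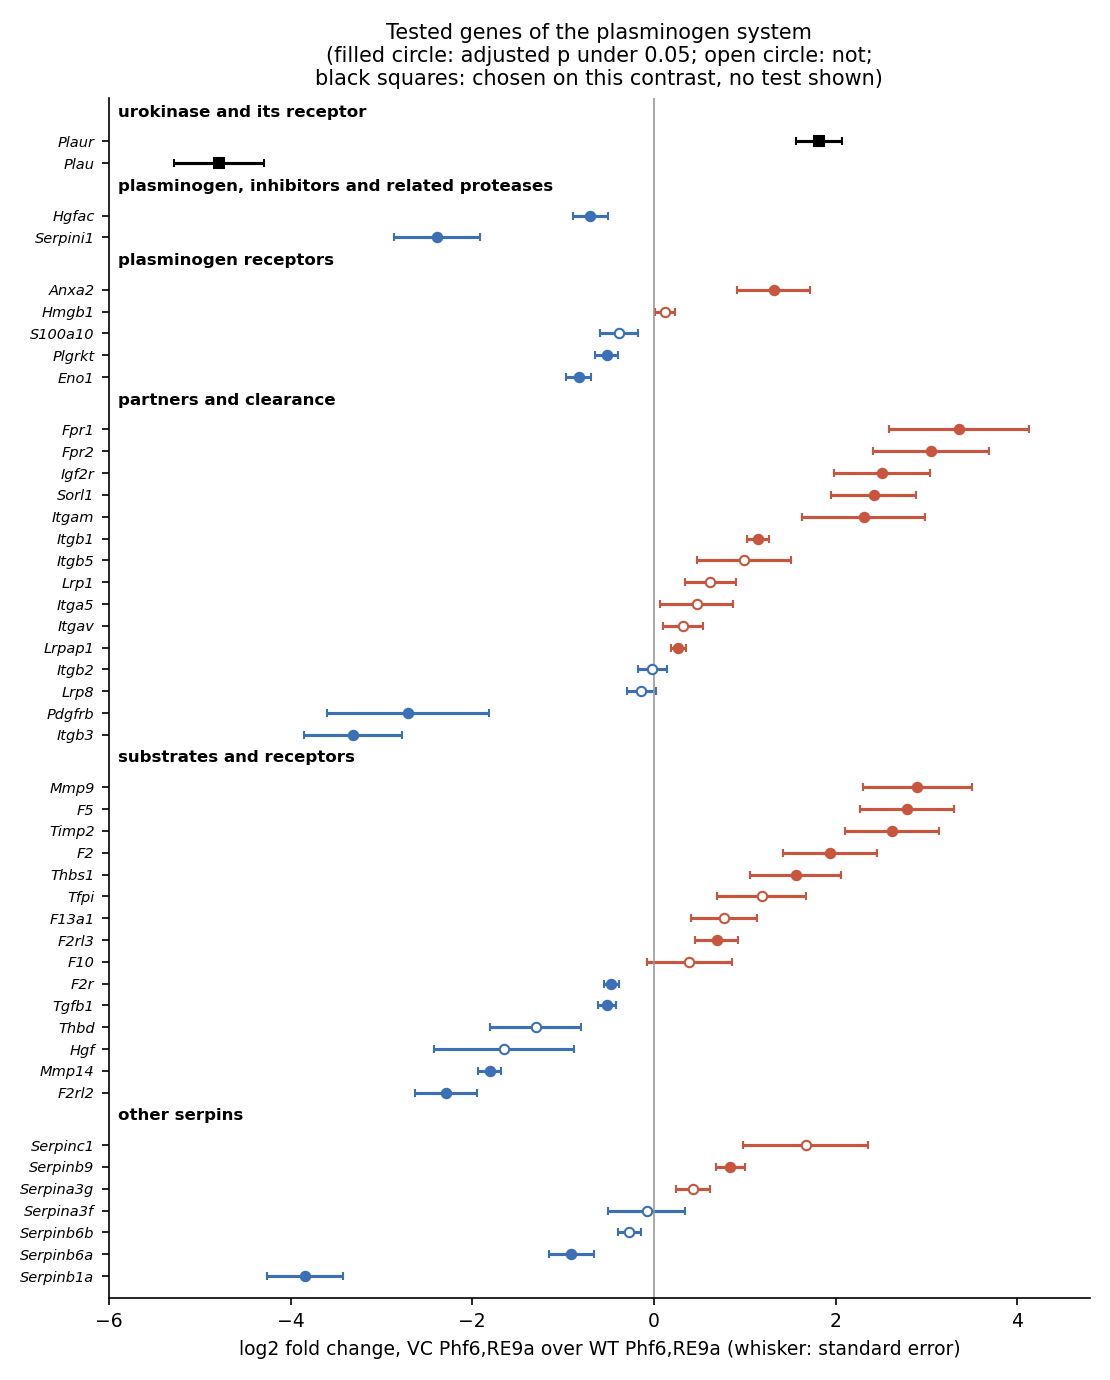
Log2 fold change of VC over WT cells with its standard error for *Plau* and *Plaur* (black squares, shown without a test) and for the tested genes of the 4 plasminogen lists and of the other serpins, where filled circles passed an edgeR adjusted p under 0.05 and open circles did not. *Plau* at -4.79 is below every other gene shown, and *Serpinb1a* at -3.84 is nearest to it.

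The genes around the members show whether a difference was shared along the chromosome. Within 250 kb of *Plau* 12 genes were tested, of which 1 was called higher and 7 lower in edgeR. Over all tested genes 21.5% were called higher and 22.7% lower. The log2 fold changes of the 12 genes ran from -1.19 to 0.86 with a median of -0.494. The difference of *Plau* at -4.79 was thus of the same sign as that median and outside their range. The nearest tested gene on the side of smaller coordinates was *Camk2g* at -42.6 kb (-0.78, SE 0.088, adjusted p = 0.000409), and on the other side *Vcl* at 86.0 kb (-0.09, SE 0.098, adjusted p = 0.512). Past 2-fold stood *Ndst2*, a heparan sulfate enzyme (-1.19, SE 0.13, adjusted p = 0.000396), and *Usp54* (-1.14, SE 0.36, adjusted p = 0.0351, and 0.0676 to 0.10 without VC library 11, 12 or 13).

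Within 250 kb of *Plaur* 16 genes were tested, 7 called higher and 2 lower, with log2 fold changes from -2.02 to 3.28 and a median of 0.44, so *Plaur* at 1.82 lay inside their range. Only *Zfp93* and *Zfp575* lay above it, both at low levels. *Zfp93* read 0.239 ± 0.237 CPM in WT, near the limit of detection, and 2.36 ± 0.409 CPM in VC cells (SD, n = 3). *Zfp575* read 1.12 ± 0.71 and 5.03 ± 1.24 CPM. Its nearest tested neighbours were *Smg9* at -39.7 kb (-0.32, SE 0.12, adjusted p = 0.0678, and 0.0146 without WT library 3), and *Zfp428* at 31.0 kb (1.27, SE 0.29, adjusted p = 0.00901). The zinc finger genes *Zfp93* (3.28, SE 0.67, adjusted p = 0.00590), *Zfp575* (2.16, SE 0.51, adjusted p = 0.0111) and *Zfp109* (1.53, SE 0.38, adjusted p = 0.0133), the potassium channel gene *Kcnn4* (1.06, SE 0.12, adjusted p = 0.000497) and *Ethe1* (1.11, SE 0.13, adjusted p = 0.000466) rose by more than 2-fold, and *Phldb3* (-2.0, SE 0.14, adjusted p = 6.65e-05) and *Gm26550* (-2.02, SE 0.33, adjusted p = 0.00234) fell by more.

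Around the members that could not be tested, 4 of 9 tested genes near *Plat* and 3 of 5 near *Serpine2* were called. Over all tested genes 44.2% were called, so nothing is read from these counts. None of the 11 genes near *Serpinb2* was read enough to be tested. *Ap3m2*, 4.5 kb from *Plat*, fell by 1.91 (SE 0.22, adjusted p = 0.000507), *Ikbkb*, the nearest on the other side at -51.1 kb, fell by 0.58 (SE 0.13, adjusted p = 0.00742), and *Ank1* rose by 1.17 (SE 0.090, adjusted p = 8.72e-05). Near *Serpine2*, *Wdfy1* (-2.26, SE 0.40, adjusted p = 0.00308), *Ap1s3* (-1.45, SE 0.13, adjusted p = 0.000142) and *Gm37886* (-2.40, SE 0.43, adjusted p = 0.00343) fell, whereas the nearest gene on its lower side, *Mrpl44* at -12.8 kb, had 0.26 (SE 0.16, adjusted p = 0.225) and the nearest on its upper side, *Gm5529* at 61.4 kb, had 0.25 (SE 0.27, adjusted p = 0.472).

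**Figure D4:**
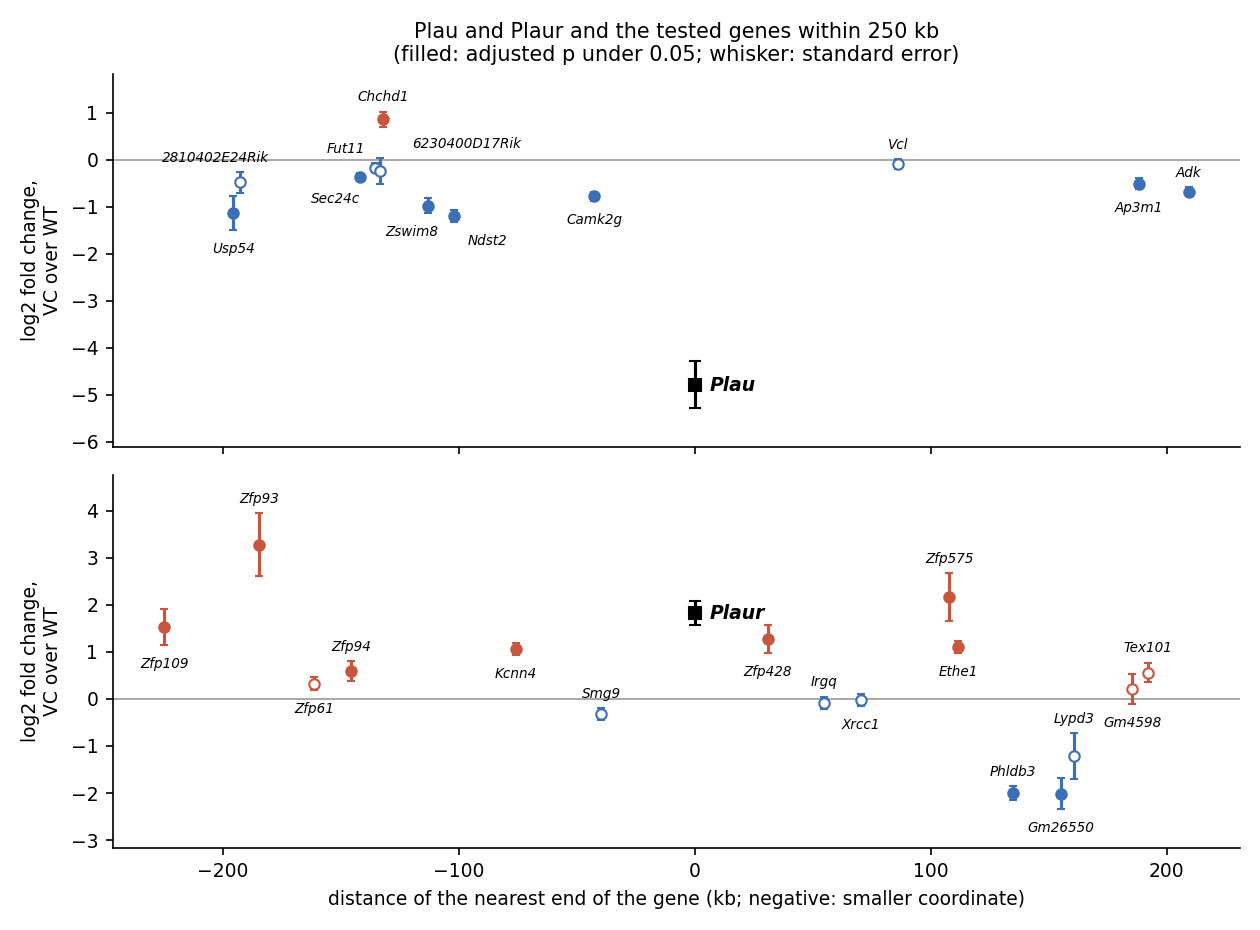
Log2 fold change of VC over WT cells with its standard error against the distance in kb from *Plau* (upper panel) and *Plaur* (lower panel), drawn as black squares at 0, for the tested genes within 250 kb, filled where the edgeR adjusted p was under 0.05. *Plau* at -4.79 stands below all 12 of its neighbours, which lie between -1.19 and 0.86, and *Plaur* at 1.82 is within the spread of its own, -2.02 to 3.28.

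The genes most like *Plau* over the 6 libraries by Pearson's r of log2 CPM were *Dnajb6* (r = 0.9987), *Uhrf1bp1l* (r = 0.9986) and *Isy1* (r = 0.9983). Like *Plau* they were lower in VC libraries, with library 12 highest and library 13 lowest within VC, but by far less, with log2 fold changes of -0.36 (SE 0.079), -1.61 (SE 0.17) and -0.34 (SE 0.099). Those most like *Plaur* were *Znhit3* (r = 0.9995), *Dstn* (r = 0.9958) and *9930104L06Rik* (r = 0.9944). Their log2 fold changes were 0.72 (SE 0.17), 0.59 (SE 0.10) and 0.27 (SE 0.12) in that order. They shared with *Plaur* the order of the libraries in VC, 11 above 12 above 13. *9930104L06Rik* was not called (edgeR adjusted p = 0.0973). An r above 0.95 was common, being reached with *Plau* by 974 genes (6.87%) and with *Plaur* by 379 genes (2.68%), and the 6 points share the same libraries and the same split in groups.

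Markers of cell types that can carry these genes were read at differing levels in the sorted cells. Whether the leukemia cells themselves or other cells carried these markers was not tested. The neutrophil markers, 10 genes led by *S100a9* and *Ngp*, summed to 158 to 485 CPM in WT libraries and to 3737, 2383 and 980 CPM in VC libraries 11, 12 and 13, and 10 of 10 were called higher in edgeR. Library 11 was highest and library 13 lowest of VC, as for *Plaur*, which spread less, at 52.4, 33.7 and 28.8 CPM. In WT libraries 1, 2 and 3 the neutrophil sums were 193, 158 and 485 CPM. There library 2 was lowest, whereas *Plaur* was lowest in library 1. The macrophage and monocyte markers, led by *Ly6c2* and *Cd68*, summed to 38.4 to 53.1 CPM and to 144, 105 and 76.6 CPM, again in the order of *Plaur*. Of the 9 tested, 2 were called higher and none lower. Without *Ly6c2* the sums were 31.4 to 41.7 CPM in WT and 65.9, 54.1 and 45.8 CPM in VC libraries 11, 12 and 13. The part of both classes of cells in the *Plaur* and *Serpinb2* values was not tested.

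The mast cell and basophil markers, led by *Hdc* and *Cpa3*, were lower in VC libraries, like *Plau*: they summed to 17583 to 28063 CPM in WT and 4710 to 5177 CPM in VC libraries, and 9 of 10 were called lower. Without *Hdc* they summed to 13610 to 20431 CPM in WT and 2074 to 2673 CPM in VC libraries. Gene by gene the log2 fold changes of these markers ran from -7.49 to -0.13, with a median of -5.13. Within VC the sums lay close together. In libraries 11, 12 and 13 *Cpa3* read 158, 390 and 274 CPM. *Ms4a2*, the marker that was not called, read 970, 935 and 1320 CPM there. Markers of endothelial cells, a known source of *Plat*, summed to 64.7 to 92.2 CPM in WT and 77.0 to 88.4 CPM in VC libraries. *Emcn* was at 0 in all 6, and 3 of 6 tested markers were called higher and 1 lower. *Tek*, among the higher, had 0 counts in every WT library and 72, 217 and 27 counts in VC libraries 11, 12 and 13. Within VC it was highest in library 12, as *Plat* was, but *Plat* also had 5, 9 and 3 counts in WT libraries. Megakaryocyte and platelet markers, led by *Gp5* and *Itga2b*, summed to 305 to 393 CPM in WT and 195 to 231 CPM in VC libraries. *Gp1bb* was at 0 in all 6, and 3 of 5 tested markers were called higher and 1 lower. The fall of the sum lay in *Itga2b*, the marker called lower, at 291, 253 and 165 CPM in WT and 14.2, 14.2 and 14.4 CPM in VC libraries. *Gp5*, among those called higher, read 97.3, 97.7 and 127 CPM in WT and 157, 173 and 194 CPM in VC libraries. Erythroid markers (1745 to 2509 CPM against 6212 to 7189 CPM, 10 of 10 called higher) and lymphoid markers (0.95 to 1.43 CPM against 8.56 to 21.3 CPM, 3 of 3 tested called higher) were higher in VC libraries too. Stromal and fibroblast markers, led by *Sparc* and *Cxcl12*, summed to 2.30 to 6.36 CPM in WT and 4.99 to 24.2 CPM in VC libraries, or to 4.63 to 6.0 CPM in VC libraries without *Sparc*, and 1 of the 2 tested was called higher and 1 lower. The part of these cell types in the values of the 5 genes and of the other listed genes was not tested.

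**Figure D5:**
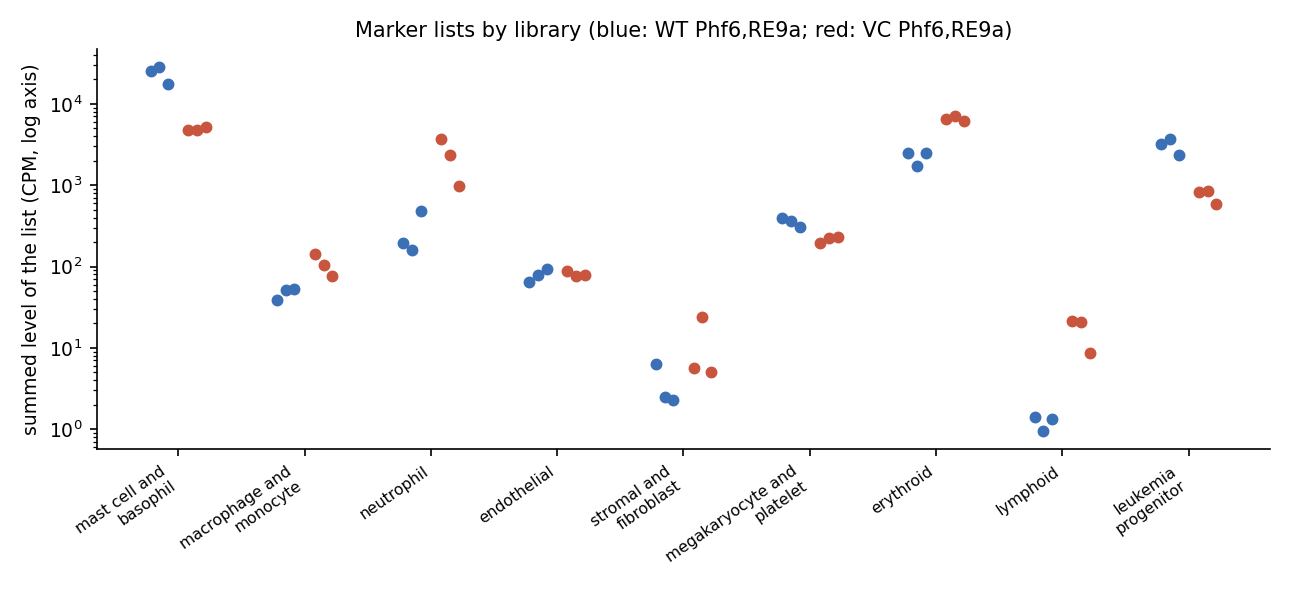
Summed level in CPM (log axis) of 9 lists of 10 cell type markers in each library, WT in blue and VC in red, with the libraries of a group from left to right in order of their number. The neutrophil list lies at 158 to 485 CPM in WT and 980 to 3737 CPM in VC libraries, and the mast cell and basophil list at 17583 to 28063 CPM and 4710 to 5177 CPM.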

How the data were processed

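RNA of sorted GFP+ bone marrow leukemia cells was sequenced as 150 bp read pairs, with 3 libraries per genotype. The authors deposited unnormalized read counts per gene, with no filter on low values, and FPKM values that divide the same counts by the gene length in the table and by a library size scaled between libraries (0.916 to 1.074 times the total count). The authors' own comparison was deposited too and not used: a signal column per group (mean counts after normalization by the authors), a deposited log2 fold change and deposited p-values, raw and adjusted. The submitters' processing notes name Bowtie 0.12.0 and mm8 without a role. The deposited coordinates were those of GENCODE M21 (GRCm38) for 98.33% of 54409 shared genes, so they are given on GRCm38, and the counter and its strand setting were not given in the sources used here.

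Counts were filtered (filterByExpr), TMM-scaled and compared with the quasi-likelihood test of edgeR 4.0.16 in R 4.3.3 with Benjamini-Hochberg adjustment over 14169 genes, at a threshold of 0.05. CPM used TMM-scaled library sizes, and r used log2 CPM with a prior count of 2. A count of 3, the limit that 0 counts allow, was 0.175 to 0.204 CPM on that scale, and limits and exact intervals cover counting error only. Scripts were tested on simulated data. The alternatives were DESeq2 1.42.0, RLE scaling, no filter, a minimum of 10 counts in every library, limma 3.58.1 on log2(FPKM + 1) and leaving out each library. Python 3.11.15 with matplotlib 3.10.9 drew the figures.

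The 5 genes and all lists were chosen with earlier results of these data known. Named genes were the 5 members and *Phf6* and *Plg* whatever their values, in each plasminogen list and among the other serpins up to 4 called genes per direction by adjusted p and the 2 tested genes of highest mean FPKM, the nearest tested neighbour on either side of a member and called neighbours past 2-fold, the 3 genes of highest r per tested member, and of each marker list the genes at 0 and the 2 of highest CPM. *Serpinb10* was added for its overlap. *Itgam* and the markers *Mpo*, *Elane*, *Prtn3*, *Ctsg*, *Fcgr3*, *Spi1*, *Ptprc*, *Ms4a2* and *Tek* were added after their values were seen. One gene of these lists, and the ratios planned with it, are not reported here.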

Additional observations from a re-analysis of the deposited data

How the results depend on the processing

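No paired analysis was run, because the labels do not tell whether any WT and VC libraries belong together. The log2 fold changes of *Plau* and *Plaur*, given as descriptions, kept their sign under DESeq2, RLE scaling, no filter, the 10-count minimum, limma and each library left out. On log2(FPKM + 1) with limma the *Plau* value was -3.85, a scale that shrinks low levels. Without the filter 2 of the 5 genes were called higher and 1 lower, beside 3046 higher and 3381 lower over all genes. That fit left out only the 28486 of 54532 genes at 0 in every library. The added gene was *Serpinb2* at 3.63 on the log2 scale, with 1 count in WT and 18 counts in VC libraries. As the genes were named with this contrast known, nothing is read from that call. Limma called 0 plasminogen receptors higher and 1 partner gene lower, the 10-count minimum left 4 partner genes higher and 1 lower and 1 gene of the inhibitor list lower, and DESeq2 and the fit without a filter each called 3 other serpins higher. Limma also lost the calls of *Anxa2* (adjusted p = 0.0594), *Pdgfrb* (0.197) and *Usp54* (0.0778). The cause was not tested.

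Leaving out each library in turn gave log2 fold changes of -5.56 to -4.38 for *Plau* and 1.53 to 1.99 for *Plaur*, and the log2 ratio of means from -2.65 to 0.11 for *Plat*, from 0.48 to 1.47 for *Serpine2* and from 3.54 to 4.44 for *Serpinb2*, which has no value without WT library 3. Over those fits 1 to 2 genes of the inhibitor list were called lower, 0 to 1 plasminogen receptors higher and 1 to 3 lower, 5 to 6 partner genes higher and 1 to 2 lower, 3 to 5 substrate genes higher and 4 to 5 lower, and 1 to 4 other serpins higher and 2 to 4 lower. Over all genes 2179 to 3132 were called higher and 2511 to 3338 lower. *Itgb2* ran from -0.11 to 0.12, above 0 without WT library 2 (0.12) and VC library 13 (0.11), and *Vcl* from -0.16 to 0.0050, above 0 without WT library 1. Depth limited *Plat*, *Serpine2* and *Serpinb2*, whose counts were at most 17 in a library.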
